A study of Mus musculus and Homo sapiens with 20 samples.

Results

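The libraries described here are the 6 RNA-seq libraries of K562 cells, out of 20 samples in the series, and they were taken by their labels without reference to any measured value. K562 is an established human cell line of chronic myeloid leukaemia origin, with the BCR-ABL1 fusion kinase. The HSP90i group held 3 libraries from K562 cells given 300 nM NVP-AUY922 for 16 h, and the Control group held 3 libraries from K562 cells without the inhibitor, whose count columns are named for the solvent DMSO. NVP-AUY922 occupies the ATP-binding pocket of the HSP90 chaperones. No genetic change beyond the line's own was named for either group, and every value below comes from this 1 line at 1 dose and 1 time. Of the 63568 genes in the count table, 13456 had adequate counts and were tested.

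HSP90 is a chaperone that finishes the folding of signalling proteins, its clients, among them the BCR-ABL1 kinase, AKT kinases and steroid hormone receptors. When HSP90 is blocked, the transcription factor HSF1 is released and switches on the genes of the heat shock response, which encode HSP90 itself, HSP70, J-domain proteins and other folding factors. In chronic myeloid leukaemia, BCR-ABL1 drives STAT5, which activates the CISH, SOCS and PIM genes, and the RAS to ERK cascade, which drives immediate early and feedback genes such as EGR1 and the SPRY genes.

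Library totals ran from 7936066 to 10950573 counts. All 13 markers of K562 cells were tested, and their summed level was 2326 to 2474 CPM (counts scaled to library size with TMM factors) in the controls and 2100.3 to 2247 CPM in the treated libraries. Of the markers of other cell types, MPO, ELANE, S100A8 and S100A9 (granulocytes and monocytes), MS4A1 and CD8A (lymphocytes), CDH1, KRT5, KRT7 and KRT14 (epithelium) and COL1A2 and PDGFRA (fibroblasts) had no count in any of the 6 libraries. Other markers on the same lists were expressed. LYZ and ITGAM made up most of the granulocyte and monocyte list, whose summed level was 193 to 212 CPM in the controls and 200.4 to 214 CPM in the treated libraries. KRT19 and EPCAM made up most of the epithelial list, at 93.1 to 165 CPM in the controls and 135 to 161 CPM in the treated libraries, and neither was called with all libraries but both were called higher without Control replicate 1. The lymphocyte list summed to 7.89 to 16.3 CPM in the controls and 10.008 to 12.0 CPM in the treated libraries. The fibroblast list summed to 7.05 to 7.67 CPM and 11.1 to 12.1 CPM, mostly from COL1A1, which rose by 0.73 ± 0.17, a call lost when any library other than Control replicate 1 was left out. Whether these transcripts came from other cells was not tested. Whether the replicates came from separate cultures is not said in the labels, so the p-values reflect the spread among these libraries, and this spread may be technical. In bulk RNA, fewer cells of a kind and less RNA per cell cannot be told apart.

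Control replicate 1 stood apart from the other 5 libraries. The SD over genes of its log2 difference from the other controls was 0.56 and 0.70, against 0.32 between Control replicates 2 and 3 and 0.27 to 0.33 among the treated libraries. It lay over 2-fold above the mean of the other controls in 427 tested genes and over 2-fold below it in 678. Cytosolic ribosomal protein genes took 7.90% of its counts, against 5.27% and 4.71% in Control replicates 2 and 3 and 5.09% to 5.55% in the treated libraries. Mitochondrially encoded genes of all kinds took 7.08%, against 5.67% and 5.45% in the other controls and 5.96% to 6.32% in the treated libraries. The counts for most gene lists, and the values of many of the genes named, are therefore given both with all 6 libraries and without this one.

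With all libraries, 688 genes were higher and 803 lower after HSP90 inhibition at an adjusted p under 0.05 (quasi-likelihood test of edgeR, adjusted by Benjamini-Hochberg), which is 11.1% of the genes tested. A log2 fold change compares HSP90i with Control, the value after ± is its standard error, and n = 3 libraries in each group. Among the called genes, 225 rose and 418 fell by at least 2-fold, and 13 rose and 18 fell by at least 8-fold. The 3 treated values lay entirely above or below the 3 control values in 35.2% of the genes tested. Without Control replicate 1 there were 1922 higher and 1995 lower genes. Without Control replicate 2 the counts were 241 and 328 (4.16% of genes tested), and without Control replicate 3 they were 774 and 896 (12.2%). Leaving out 1 HSP90i library gave 173 to 202 higher and 171 to 216 lower genes, or 2.58%, 2.52% and 3.04% of genes tested without HSP90i replicates 1, 2 and 3. Of the 1491 calls, 297 (150 higher and 147 lower) were also made under each of the 14 alternative analyses, and these had absolute log2 fold changes of at least 0.77.

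**Figure D1:**
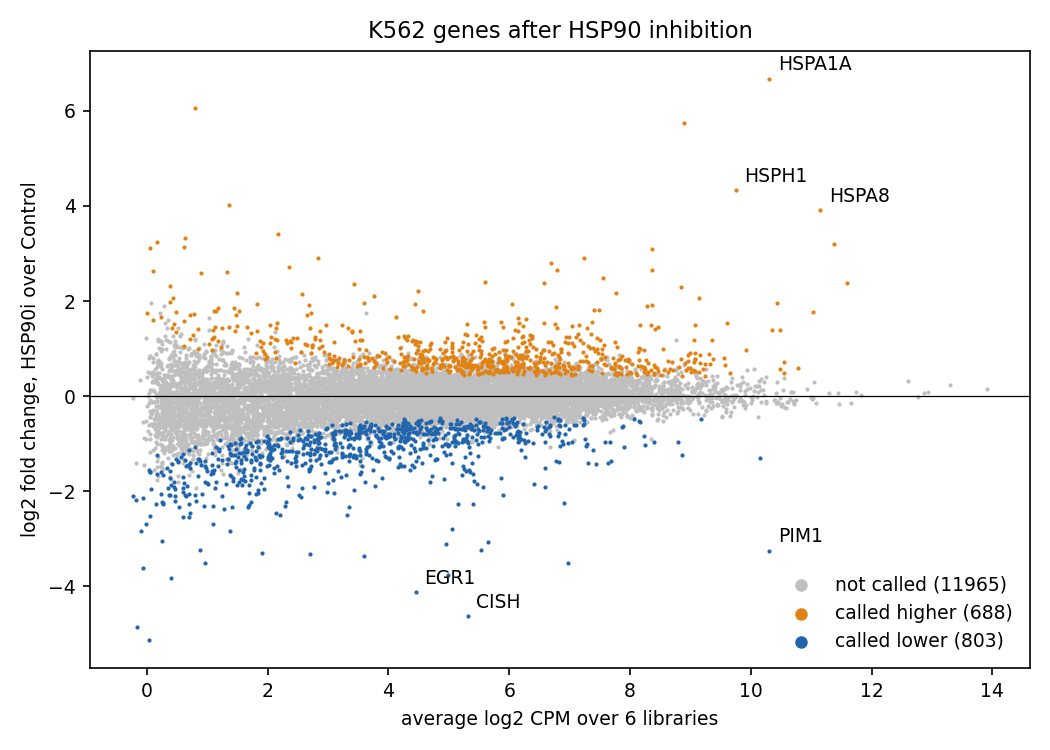
Each point is 1 of the 13456 tested genes, with its average log2 CPM on the x axis and its log2 fold change (HSP90i over Control) on the y axis. The 688 genes called higher are orange, the 803 called lower are blue and the others grey, and the labelled heat shock genes HSPA1A, HSPH1 and HSPA8 lie near the top while CISH, EGR1 and PIM1 lie near the bottom.

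Cytosolic and nuclear chaperones of the HSP90, HSP70 and HSP110 families rose. Of 11 tested members, 9 were higher and 1 was lower, against 11.1% of all tested genes called, and the median log2 fold change was 2.90 against −0.02 over all tested genes. Without Control replicate 1 the counts were again 9 and 1, against 28.8% of tested genes called (14.2% higher and 14.6% lower). HSPA1A, an inducible HSP70, stood at 31.6, 20.4 and 21.8 CPM in Control replicates 1, 2 and 3 and 2653, 2719 and 2169.9 CPM in HSP90i replicates 1, 2 and 3. The treated libraries were all far above the controls, and Control replicate 1 was the highest control. The log2 fold change was 6.67 ± 0.23 with all libraries (edgeR adjusted p = 3.39e-06) and 6.90 ± 0.13 without Control replicate 1. HSPA1B is nearly identical to HSPA1A, so reads of the pair cannot be assigned with certainty, and it stood at 21.9, 14.5 and 15.7 CPM in Control replicates 1, 2 and 3 and 871, 1052 and 869 CPM in HSP90i replicates 1, 2 and 3. Its log2 fold change was 5.74 ± 0.21.

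Other members of these families rose too. HSPA8, the constitutive cytosolic HSP70, stood at 288, 257 and 305 CPM in Control replicates 1, 2 and 3 and 4063, 4553 and 4203 CPM in HSP90i replicates 1, 2 and 3. Its control values lay within a narrow band that Control replicate 1 shared, and its log2 fold changes with and without that library were 3.91 ± 0.13 and 3.93 ± 0.09. HSPH1, an HSP110 that exchanges the nucleotide on HSP70, stood at 74.1, 83.3 and 85.8 CPM in Control replicates 1, 2 and 3 and 1567, 1758 and 1591 CPM in HSP90i replicates 1, 2 and 3. It rose by 4.34 ± 0.14 with all libraries and 4.28 ± 0.09 without Control replicate 1. HSPA4L, another HSP110, had 19.7, 33.1 and 37.8 CPM in the controls, lowest in Control replicate 1, and 171, 212 and 189 CPM in the treated libraries. Its log2 fold change was 2.66 ± 0.24, and 2.43 ± 0.12 without that control. HSPA4, of the same family, rose by 0.79 ± 0.11, and HSPA1L by 2.90 ± 0.25 from a level of 1.08 to 2.15 CPM in the controls.

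The cytosolic genes of the drug's targets were among these. HSP90AA1, the stress-inducible form, stood at 515, 493 and 561 CPM in Control replicates 1, 2 and 3 and 4415, 5152 and 4894 CPM in HSP90i replicates 1, 2 and 3, and HSP90AB1, the constitutive form, at 1127, 887 and 972 CPM in Control replicates 1, 2 and 3 and 5245, 5218 and 5157 CPM in HSP90i replicates 1, 2 and 3. In both genes every treated library lay far above every control. Leaving out Control replicate 1, which held the highest HSP90AB1 control value, moved HSP90AB1 from 2.39 ± 0.13 to 2.49 ± 0.07 and left HSP90AA1 at 3.20. The lists of HSP90, HSP70, J-domain, small heat shock and BAG genes together took 0.494% to 0.523% of the counts in the controls and 2.38% to 2.56% in the treated libraries.

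HSPA6 was the member that fell. HSPA6, a human HSP70 gene classed as strictly stress-inducible, stood at 29.0, 18.2 and 17.6 CPM in Control replicates 1, 2 and 3 and 9.09, 8.80 and 8.90 CPM in HSP90i replicates 1, 2 and 3, so that every treated value was below every control value. Its log2 fold change was −1.27 ± 0.22 (edgeR adjusted p = 0.00971) and −1.001 ± 0.13 without Control replicate 1, the highest control. The call was lost when any 1 of the HSP90i libraries was left out (edgeR adjusted p = 0.056 to 0.0676). The remaining member, HSPA14, a ribosome-associated HSP70, was not called.

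**Figure D2:**
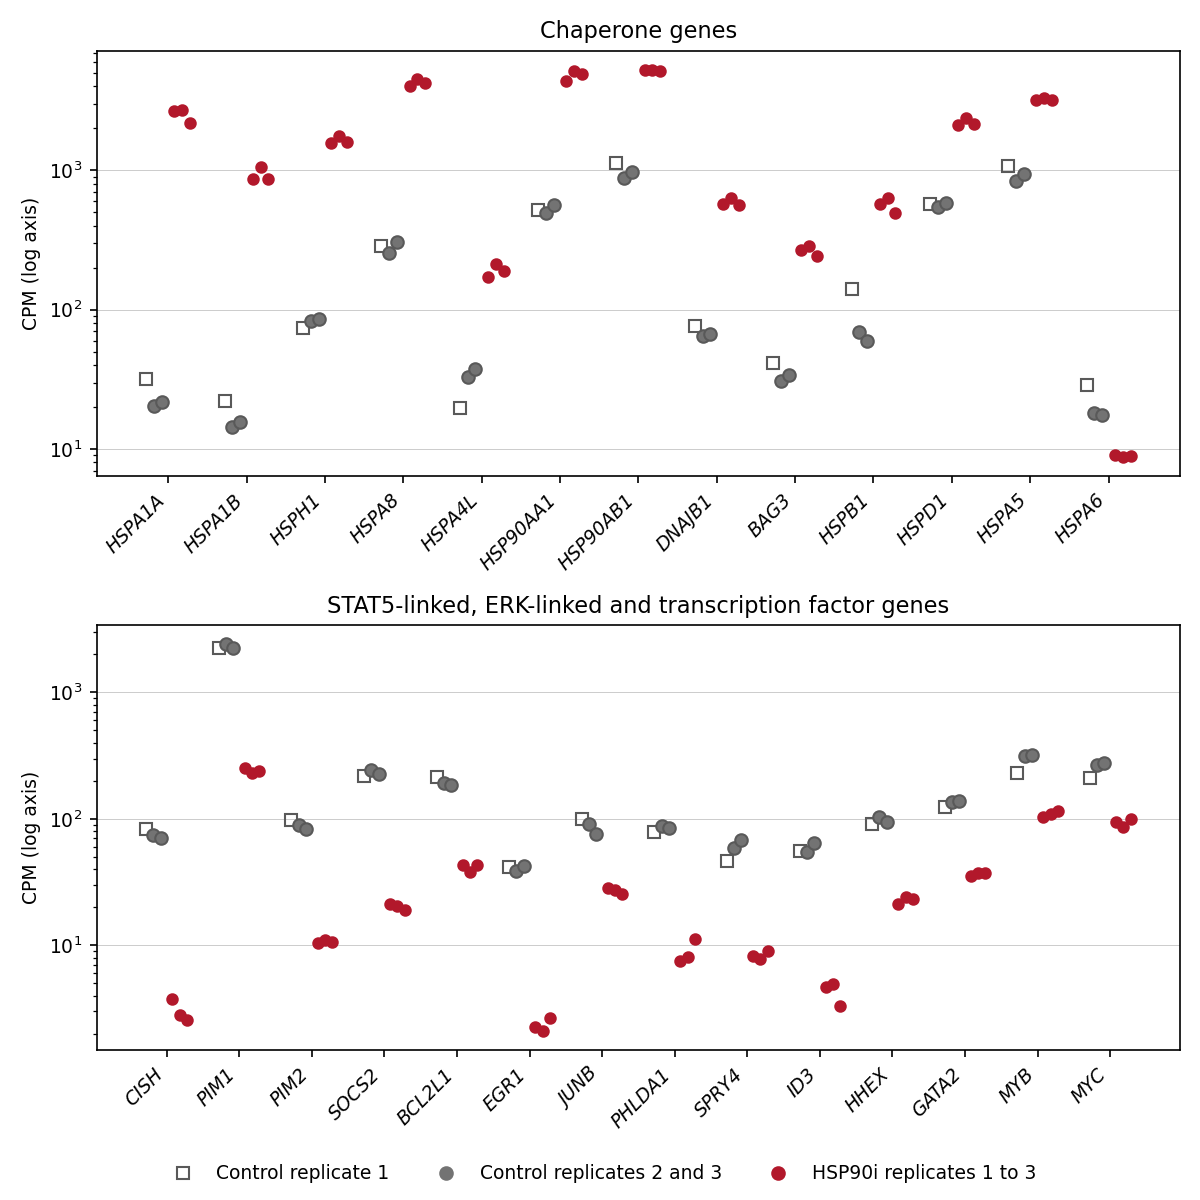
Each point is 1 library's TMM-scaled CPM on a log axis, with Control libraries in grey (replicate 1 as an open square) and HSP90i libraries in red. The upper panel shows chaperone genes that rose and HSPA6, and the lower panel STAT5-linked, ERK-linked and transcription factor genes that fell. Control replicate 1 lies furthest from the other controls for HSPB1, HSPA4L and HSPA6, and in no gene shown does it reach the treated values.

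Among J-domain proteins, which hand substrates to HSP70, 5 of 13 tested members outside the endoplasmic reticulum (ER) rose and 1 fell. Without Control replicate 1 these counts were 6 and 2. The shares of all tested genes called were 11.1% with all libraries and 28.8% without Control replicate 1. DNAJB1, the main J-domain partner of HSP70 in the stress response, stood at 76.9, 65.1 and 66.3 CPM in Control replicates 1, 2 and 3 and 573, 629.7 and 568 CPM in HSP90i replicates 1, 2 and 3. It rose by 3.09 ± 0.13, and by 3.17 ± 0.09 without Control replicate 1. DNAJA1 rose by 2.06 ± 0.12, DNAJB6, a suppressor of protein aggregation, by 1.49 ± 0.12, and DNAJB5 by 1.76 ± 0.19. DNAJB4 stood at 16.0, 29.4 and 32.0 CPM in the controls and 164, 212 and 164 CPM in the treated libraries, so Control replicate 1 was the lowest library. Its log2 fold change went from 2.80 ± 0.26 to 2.56 ± 0.13 without that control. The 5 higher calls were made whichever library was left out. The lower call was of DNAJA3, a mitochondrial J-domain protein gene (−0.44 ± 0.11), and was lost when any library other than Control replicate 1 was left out.

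Of 10 tested small heat shock proteins and BAG cofactors, 4 rose and 0 fell, or 5 and 1 without Control replicate 1. Over all tested genes, 11.1% and 28.8% were called in the same fits. BAG3, which links HSP70 to autophagy and is a classic HSF1 target, stood at 41.4, 31.0 and 34.2 CPM in Control replicates 1, 2 and 3 and 268, 285 and 244 CPM in HSP90i replicates 1, 2 and 3. No control value came near the treated ones, and the log2 fold change was 2.90 ± 0.16, or 3.03 ± 0.11 without Control replicate 1. HSPB1, a small heat shock protein that holds unfolded proteins in solution, was the chaperone most affected by that library among these 4. It stood at 141, 68.6 and 59.4 CPM in Control replicates 1, 2 and 3 and 576, 633 and 490.3 CPM in HSP90i replicates 1, 2 and 3, with Control replicate 1 at over 2 times the other controls. The log2 fold change was 2.66 ± 0.32 with all libraries and 3.14 ± 0.12 without Control replicate 1, and the adjusted p fell from 0.00197 to 3.90e-10 (edgeR). BAG2, a nucleotide exchange factor that blocks the ubiquitin ligase CHIP, rose by 1.26 ± 0.14. CRYAB, the small heat shock protein alpha-B crystallin, was at or near 0 in the controls (0, 0.0863 and 0 CPM) and at 3.79, 2.30 and 3.002 CPM in the treated libraries, so no fold is given.

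HSP90's own co-chaperones split. Of 22 tested members, 7 rose and 0 fell (10 and 1 without Control replicate 1), and the median was only 0.08. All tested genes were called at 11.1% and 28.8% in the same fits. The 7 included CHORDC1, a zinc-binding HSP90 partner, at 47.5, 64.2 and 60.6 CPM in Control replicates 1, 2 and 3 and 315, 348 and 296 CPM in HSP90i replicates 1, 2 and 3. All treated values exceeded all control values, and the log2 fold change was 2.48 ± 0.16, or 2.36 ± 0.10 without Control replicate 1. FKBP4, an immunophilin of steroid receptor complexes, rose by 2.16 ± 0.16, AHSA1, which speeds HSP90's ATP cycle, by 1.81 ± 0.14, STIP1 (HOP), which bridges HSP70 and HSP90, by 1.53 ± 0.12, and PPID, a cyclophilin, by 1.15 ± 0.12. PTGES3 (p23), which stabilises client complexes, rose by 0.78 ± 0.13 but lost its call without HSP90i replicate 1 or 2 (edgeR adjusted p = 0.0357 to 0.0586 over the 3 HSP90i libraries left out in turn). The 15 members that were not called ranged from −0.55 to 0.86. Their upper end was NUDC, which stood at 234, 126 and 120.2 CPM in Control replicates 1, 2 and 3 and 296, 308 and 268 CPM in HSP90i replicates 1, 2 and 3. Control replicate 1 was near the treated values and the other controls were far below them, and NUDC went from 0.86 ± 0.25 (adjusted p = 0.0594) to 1.24 ± 0.09 (adjusted p = 3.29e-07, edgeR) without it.

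Barrel-shaped chaperonins rose by less. The list held 12 tested genes for the cytosolic TRiC barrel and for mitochondrial chaperones. The latter include the HSP70 gene HSPA9 and the HSP90 gene TRAP1 besides the barrel. Of the 12, 9 were higher and 0 lower (median 0.71). There were 11 higher without Control replicate 1, and 6 without Control replicate 2 or any 1 HSP90i library. Over all tested genes, 5.11% were called higher with all libraries and 14.2% without Control replicate 1. Without Control replicate 2, 4.16% were called in either direction, and without any 1 HSP90i library 2.52% to 3.04%. HSPD1 (HSP60), the mitochondrial barrel, stood at 571, 549 and 586 CPM in Control replicates 1, 2 and 3 and 2114, 2365 and 2158 CPM in HSP90i replicates 1, 2 and 3. Its control values spanned 549 to 586 CPM, and the log2 fold changes with and without Control replicate 1 were both 1.96. HSPE1, its lid, stood at 103, 71.7 and 51.6 CPM in Control replicates 1, 2 and 3 and 262, 327 and 205 CPM in HSP90i replicates 1, 2 and 3, higher in Control replicate 1 than in the others, and rose by 1.81 ± 0.27, or 2.10 ± 0.18 without it. Of the TRiC subunits, TCP1 rose by 1.5 ± 0.12, CCT4 by 0.98 ± 0.12, CCT3 by 0.91 ± 0.12 and CCT6A by 0.86 ± 0.11. These 6 calls were made in all 6 leave-one-out analyses.

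HSF1 itself was not called. HSF1 messenger RNA stood at 117, 76.1 and 73.0 CPM in Control replicates 1, 2 and 3 and 83.2, 82.4 and 75.7 CPM in HSP90i replicates 1, 2 and 3, and the log2 fold change of −0.14 ± 0.19 (edgeR adjusted p = 0.688) became 0.11 ± 0.09 without Control replicate 1, its highest library. The treated values overlapped the controls. Of the 5 tested heat shock factor genes, 1 was called, HSBP1, which encodes a protein that binds HSF1. It stood at 123, 112 and 107 CPM in Control replicates 1, 2 and 3 and 150.2, 171 and 152 CPM in HSP90i replicates 1, 2 and 3, with a log2 fold change of 0.47 ± 0.12 (edgeR adjusted p = 0.0458), and lost its call under 9 of the 14 alternatives.

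Genes of the ER folding machinery rose as well. Of 28 tested ER chaperones, folding enzymes and degradation factors, 16 were higher and 0 lower, against 5.11% of all tested genes called higher, and 27 had a positive log2 fold change. HSPA5 (BiP), the HSP70 of the ER, stood at 1075, 838 and 944 CPM in Control replicates 1, 2 and 3 and 3217, 3320.4 and 3177 CPM in HSP90i replicates 1, 2 and 3. It rose by 1.77 ± 0.13, and by 1.86 ± 0.07 without Control replicate 1, its highest control. HERPUD1, a scaffold of ER-associated degradation, stood at 145, 133 and 134 CPM in Control replicates 1, 2 and 3 and 516, 529.6 and 522 CPM in HSP90i replicates 1, 2 and 3. The treated values were nearly equal and far above the controls, and the log2 fold change was 1.93 ± 0.11. Other members that rose were the disulfide isomerase PDIA4 (1.45 ± 0.12), HSP90B1, the ER form of HSP90 (1.39 ± 0.12), HYOU1, an ER HSP110 (1.18 ± 0.12), and DERL3, a channel component of ER-associated degradation (1.80 ± 0.19).

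The number of ER genes called changed with the library left out, as did the share of all tested genes called. Without Control replicate 1, 25 of 28 rose, against 14.2% of all tested genes called higher, and the median went from 0.87 to 1.06. Without HSP90i replicate 2, 11 rose, against 2.52% of all tested genes called in either direction. SDF2L1, a BiP cofactor, stood at 432, 216 and 153 CPM in Control replicates 1, 2 and 3 and 618, 724 and 468 CPM in HSP90i replicates 1, 2 and 3. Control replicate 1 was closer to the lowest treated library than to the other controls, and SDF2L1 went from 1.17 ± 0.35 (edgeR adjusted p = 0.0665) to 1.70 ± 0.17 (edgeR adjusted p = 6.05e-06) without it. CRELD2, another ER folding factor, stood at 34.5, 22.2 and 18.2 CPM in the controls and 44.8, 43.4 and 39.7 CPM in the treated libraries and went from 0.77 ± 0.22 to 1.07 ± 0.12. Of the sensors and transcription factors of the unfolded protein response, 3 of 10 rose, or 4 without Control replicate 1. All tested genes were called higher at 5.11% and 14.2% in the same fits. EIF2AK3 (PERK), the kinase that slows translation, stood at 27.2, 43.1 and 47.5 CPM in Control replicates 1, 2 and 3 and 101, 96.4 and 109 CPM in HSP90i replicates 1, 2 and 3. Its treated values exceeded every control, and its log2 fold change was 1.38 ± 0.20, or 1.18 ± 0.10 without Control replicate 1, its lowest library. The calls for XBP1 (0.59 ± 0.12) and CREB3L2 (0.84 ± 0.18) were lost without Control replicate 2 or any 1 HSP90i library (edgeR adjusted p up to 0.0981 and 0.109). DDIT3 (CHOP), a pro-death transcription factor of the same pathway, stood at 172, 144 and 146 CPM in the controls and 170.1, 204 and 172 CPM in the treated libraries, with a log2 fold change of 0.24 ± 0.14 (edgeR adjusted p = 0.298), or 0.33 ± 0.10 without Control replicate 1 (edgeR adjusted p = 0.0185).

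**Figure D3:**
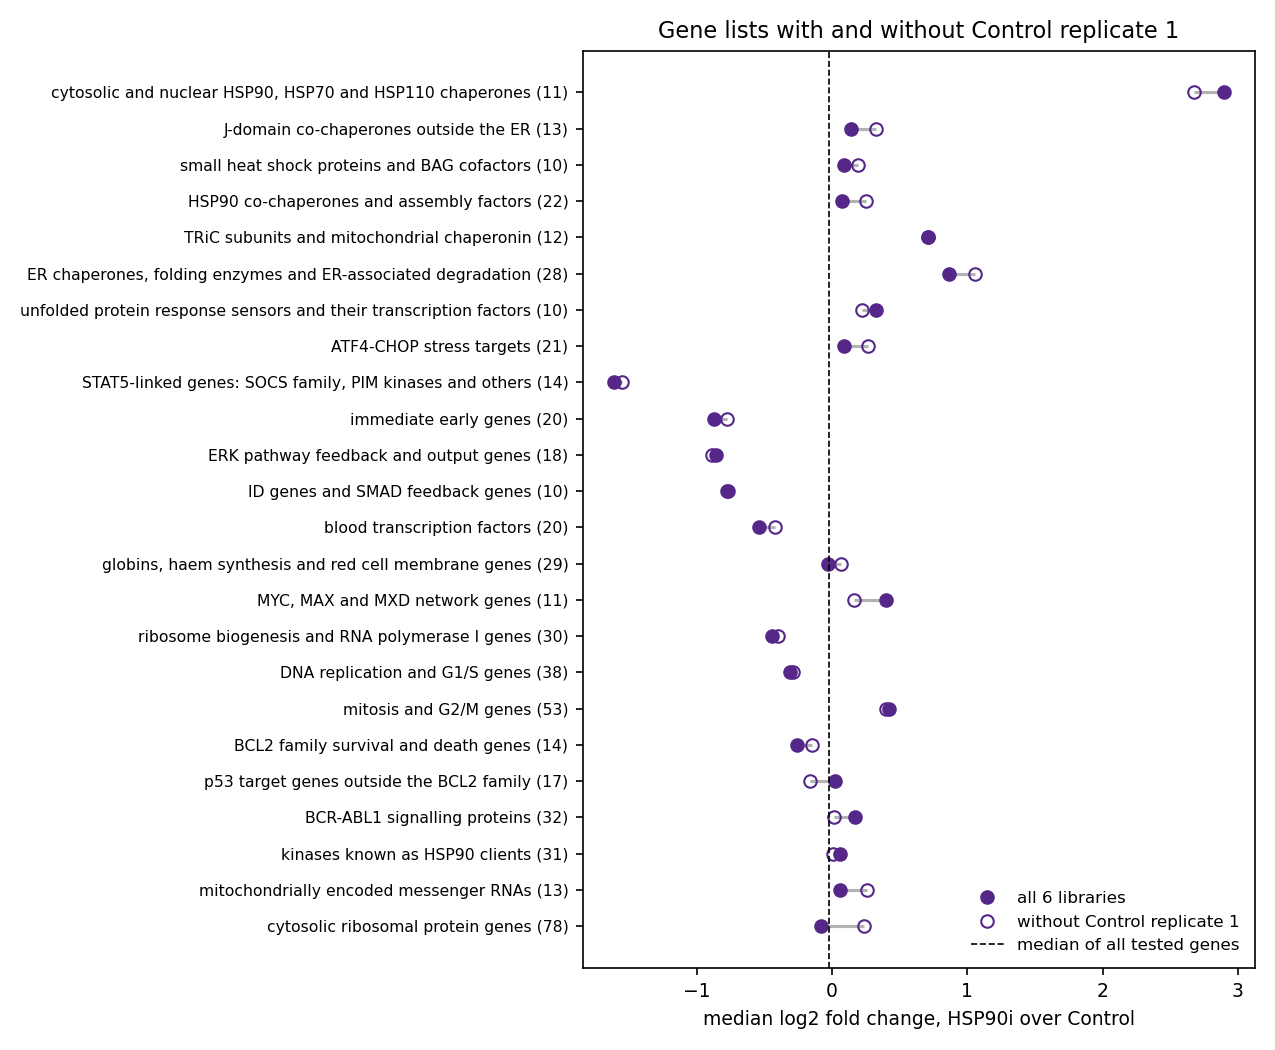
Median log2 fold change (HSP90i over Control, x axis) of each of 24 gene lists (y axis, with the number of tested members), computed with all 6 libraries (filled circles) and without Control replicate 1 (open circles). The chaperone and ER lists lie to the right of the all-gene median of −0.02 (dashed line) and the STAT5-linked, immediate early and ERK lists to its left with either set of libraries, while the ribosomal protein list moves from −0.08 to 0.24.

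Most STAT5-linked genes fell. Of 14 tested members of the SOCS and PIM families and other STAT5-linked genes, 0 rose and 8 fell, against 5.97% of all tested genes called lower, with a median of −1.61. The 8 were called lower in all 14 alternatives, and without Control replicate 1 there were 10. CISH, a STAT5-induced inhibitor of cytokine receptors, stood at 82.9, 74.5 and 70.2 CPM in Control replicates 1, 2 and 3 and 3.79, 2.80 and 2.56 CPM in HSP90i replicates 1, 2 and 3. Every treated value was below every control value, and the log2 fold change was −4.62 ± 0.19 (edgeR adjusted p = 4.42e-06), or −4.55 ± 0.14 without Control replicate 1.

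PIM1, which encodes a survival kinase, stood at 2249, 2397 and 2248 CPM in Control replicates 1, 2 and 3 and 251, 232 and 241 CPM in HSP90i replicates 1, 2 and 3. The controls were close together, Control replicate 1 among them, and the log2 fold changes with and without it were −3.25 ± 0.12 and −3.27 ± 0.07. PIM2 stood at 97.7, 88.6 and 82.5 CPM in Control replicates 1, 2 and 3 and 10.5, 11.0 and 10.6 CPM in HSP90i replicates 1, 2 and 3 and fell by 3.07 on the log2 scale. PIM3, the third PIM kinase, stood at 119, 119 and 102 CPM in the controls and 106, 101 and 86.2 CPM in the treated libraries, which overlapped, and it was not called (−0.22 ± 0.14, edgeR adjusted p = 0.355).

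The SOCS genes, which encode feedback inhibitors of cytokine signalling, also divided. SOCS2 stood at 219, 245 and 228 CPM in Control replicates 1, 2 and 3 and 21.3, 20.5 and 18.9 CPM in HSP90i replicates 1, 2 and 3, with a log2 fold change of −3.51 ± 0.13, or −3.54 ± 0.10 without Control replicate 1. SOCS1 stood at 22.5, 16.2 and 10.8 CPM in Control replicates 1, 2 and 3 and 3.32, 3.60 and 1.78 CPM in HSP90i replicates 1, 2 and 3, the controls differing among themselves more than in SOCS2, and fell by 2.50 with an SE of 0.34, or 2.21 without Control replicate 1, its highest library. SOCS3 changed by −2.46 ± 0.25 from a control level of 5.90 to 8.19 CPM. SOCS4 was not called in the main fit, at −0.31 ± 0.22 (edgeR adjusted p = 0.423). It was called lower without Control replicate 1, at −0.53 ± 0.09 (edgeR adjusted p = 6.12e-04). Limma-voom with sample weights, which kept all libraries, also called it lower. BCL2L1, which encodes the survival protein BCL-XL and is a STAT5 target, stood at 215, 193 and 187 CPM in Control replicates 1, 2 and 3 and 43.4, 38.2 and 42.8 CPM in HSP90i replicates 1, 2 and 3. It fell in every treated library, with a log2 fold change of −2.26 ± 0.13, and CCND2, which encodes cyclin D2, changed by −0.97 ± 0.12.

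Immediate early genes, which respond to growth signals within minutes, were lower in many cases. Of 20 tested, 1 rose and 10 fell (median −0.87), against 5.97% of all tested genes called lower. When any 1 library was left out 8 to 12 fell, against 2.52% to 28.8% of all tested genes called in either direction. EGR1, a zinc finger transcription factor, stood at 41.8, 38.6 and 42.4 CPM in Control replicates 1, 2 and 3 and 2.27, 2.10 and 2.67 CPM in HSP90i replicates 1, 2 and 3. All treated values were far below all controls, and the log2 fold change was −4.12 ± 0.17, or −4.10 ± 0.15 without Control replicate 1. JUNB stood at 99.8, 91.9 and 76.1 CPM in Control replicates 1, 2 and 3 and 28.3, 27.5 and 25.2 CPM in HSP90i replicates 1, 2 and 3 and changed by −1.72 ± 0.15, or by −1.64 ± 0.11 without Control replicate 1. FOS was low throughout, at 2.75, 3.02 and 3.11 CPM in the controls and 0.190, 0.5 and 0.222 CPM in the treated libraries (−3.23 ± 0.37). IER3 changed by −2.01 ± 0.19 and NR4A1, an orphan nuclear receptor, by −1.69 ± 0.16. The member that rose, named after its values were seen, was JUN, FOS's partner in AP-1, which stood at 426, 385 and 374 CPM in Control replicates 1, 2 and 3 and 704, 675 and 673 CPM in HSP90i replicates 1, 2 and 3 and had a log2 fold change of 0.79 ± 0.11, or 0.85 ± 0.07 without Control replicate 1.

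Feedback and output genes of the ERK cascade followed the same direction in most members. Of 18 tested, 11 fell and 2 rose (median −0.86), against 5.97% of all tested genes called lower and 5.11% called higher. The count of lower genes was 13 without Control replicate 1 and 6 without Control replicate 2 or HSP90i replicate 3. It was 5 without HSP90i replicate 1 and 4 without HSP90i replicate 2. Without Control replicate 1, 14.6% of all tested genes were called lower. Without Control replicate 2, 4.16% were called in either direction. The shares without HSP90i replicates 1, 2 and 3 were 2.58%, 2.52% and 3.04%. PHLDA1 stood at 78.3, 88.0 and 85.1 CPM in Control replicates 1, 2 and 3 and 7.48, 8.10 and 11.1 CPM in HSP90i replicates 1, 2 and 3, with a log2 fold change of −3.24 ± 0.18. SPRY4, an inhibitor of RAS to ERK signalling, stood at 46.1, 58.8 and 67.8 CPM in Control replicates 1, 2 and 3 and 8.24, 7.80 and 9.01 CPM in HSP90i replicates 1, 2 and 3. The 2 groups were far apart, and the log2 fold change was −2.78 ± 0.18, or −2.92 ± 0.12 without Control replicate 1, its lowest control. CCND1, which encodes cyclin D1, changed by −1.80 ± 0.14 and ETV5, an ETS factor, by −0.96 ± 0.13. These 4 were called lower in every alternative. DUSP5, an ERK phosphatase, changed by −1.37 ± 0.24 and DUSP7 by −0.84 ± 0.15, and the call was lost for DUSP5 without HSP90i replicate 2 (edgeR adjusted p = 0.0646) and for DUSP7 without Control replicate 2 or HSP90i replicate 1 or 2 (edgeR adjusted p up to 0.0788).

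ID genes, which encode inhibitors of differentiation factors and are induced by bone morphogenetic protein signals, fell. Of 10 tested ID and SMAD feedback genes, 5 fell and 1 rose (median −0.78), 8 fell without Control replicate 1 and 3 without HSP90i replicate 1. Over all tested genes, 5.97% were called lower with all libraries and 14.6% without Control replicate 1. Without HSP90i replicate 1, 2.58% were called in either direction. ID3 stood at 56.2, 55.1 and 64.2 CPM in Control replicates 1, 2 and 3 and 4.64, 4.90 and 3.34 CPM in HSP90i replicates 1, 2 and 3, with a log2 fold change of −3.76 ± 0.18, or −3.78 ± 0.15 without Control replicate 1. ID1 stood at 15.5, 10.9 and 7.89 CPM in Control replicates 1, 2 and 3 and 1.61, 1.10 and 0.667 CPM in HSP90i replicates 1, 2 and 3. Control replicate 1 was its highest library, and the log2 fold change was −3.31 ± 0.36, or −3.03 ± 0.28 without it. ID2 changed by −1.89 ± 0.19, or by −2.04 ± 0.13 without Control replicate 1. These 3 were called lower in every alternative.

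Messenger RNAs for BCR-ABL1 pathway proteins themselves mostly showed no call. Of 32 tested, 1 rose and 0 fell, which is below the 11.1% called over all genes. SHC1, the adaptor that links the kinase to RAS, stood at 57.4, 66.0 and 69.0 CPM in Control replicates 1, 2 and 3 and 115, 119 and 127 CPM in HSP90i replicates 1, 2 and 3. It rose in each treated library relative to each control, with a log2 fold change of 0.91 ± 0.13, or 0.84 ± 0.09 without Control replicate 1. Without that library 4 of the 32 members were higher and 4 lower. That is 8 of 32, against 28.8% of all genes in that fit. Of 31 tested kinases known as HSP90 clients, 3 rose and 0 fell with all libraries, which is near the background of 11.1%. In these kinases 8 rose and 6 fell without Control replicate 1, against 28.8%. At most 1 rose when an HSP90i library was left out, against 2.52% to 3.04% of all tested genes called in either direction. AKT1, one of these kinases, stood at 82.1, 84.3 and 82.4 CPM in the controls and 75.1, 63.4 and 65.9 CPM in the treated libraries, and went from −0.28 ± 0.12 (adjusted p = 0.187) to −0.29 ± 0.10 (adjusted p = 0.0379, edgeR).

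Several transcription factors of blood cells were lower. Of 20 tested, 0 rose and 7 fell (median −0.54), 12 fell without Control replicate 1, and 4 fell without Control replicate 2 or any 1 HSP90i library. The shares of all tested genes called lower were 5.97% with all libraries and 14.6% without Control replicate 1. Those called in either direction were 4.16% without Control replicate 2 and 2.52% to 3.04% without any 1 HSP90i library. HHEX, a homeobox factor of early blood cells, stood at 91.6, 103 and 93.6 CPM in Control replicates 1, 2 and 3 and 21.2, 24.2 and 23.1 CPM in HSP90i replicates 1, 2 and 3. GATA2, a factor of stem and progenitor cells, stood at 125, 136 and 137 CPM in Control replicates 1, 2 and 3 and 35.5, 37.4 and 37.1 CPM in HSP90i replicates 1, 2 and 3. In both genes the treated values were tightly grouped and well under the controls, and the log2 fold changes were −2.07 ± 0.13 and −1.85 ± 0.12. MYB, a factor that keeps progenitors dividing, stood at 229.7, 316 and 321 CPM in Control replicates 1, 2 and 3 and 104, 109 and 115 CPM in HSP90i replicates 1, 2 and 3 and changed by −1.40 ± 0.16, or by −1.54 ± 0.08 without Control replicate 1, its lowest control. RUNX1 changed by −1.01 ± 0.15. GATA1, the main erythroid factor, stood at 277, 166 and 153 CPM in Control replicates 1, 2 and 3 and 115, 104 and 100.4 CPM in HSP90i replicates 1, 2 and 3. Control replicate 1 was far above the other controls, and the log2 fold change was −0.90 ± 0.22 with it and −0.58 ± 0.09 without it. The GATA1 call was lost without Control replicate 2 or any 1 HSP90i library (edgeR adjusted p up to 0.157).

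Red cell genes mostly showed no call. Of 29 tested globin, haem synthesis and membrane genes, 2 rose and 0 fell, which is below the 11.1% background. Without Control replicate 1, 6 rose and 2 fell, which is near the 28.8% background of that fit. EPB42, a red cell membrane protein gene, was under 1 CPM in all 3 controls (0.197, 0.345 and 0.239 CPM) and at 1.61, 2.80 and 2.89 CPM after treatment, a log2 fold change of 3.13 ± 0.43, or 2.54 by limma-voom with sample weights. Of 6 tested megakaryocyte genes, 0 were called, and 1 was lower without Control replicate 1.

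MYC fell and 2 of its antagonists rose. MYC, a growth-promoting transcription factor, stood at 209, 268 and 277 CPM in Control replicates 1, 2 and 3 and 93.7, 86.9 and 99.5 CPM in HSP90i replicates 1, 2 and 3. All treated values lay under 100 CPM and all controls over 200 CPM, and the log2 fold change was −1.43 ± 0.15, or −1.54 ± 0.09 without Control replicate 1, its lowest control. MXD1, an antagonist that competes with MYC for MAX, stood at 56.5, 76.9 and 91.3 CPM in Control replicates 1, 2 and 3 and 169.9, 177 and 187 CPM in HSP90i replicates 1, 2 and 3 and rose by 1.25 ± 0.18, or by 1.08 ± 0.10 without Control replicate 1. MXD4, another antagonist, rose by 0.97 ± 0.19, but that call was lost without Control replicate 2 or any 1 HSP90i library (edgeR adjusted p up to 0.0872). MAX, their shared partner, stood at 79.6, 66.3 and 66.1 CPM in the controls and 75.7, 73.8 and 72.6 CPM in the treated libraries and was not called (0.07 ± 0.13, edgeR adjusted p = 0.788). In all, 2 of 11 tested network genes rose and 1 fell, or 5 and 4 without Control replicate 1. The shares of all tested genes called were 11.1% and 28.8%. MYC also belongs to the immediate early list, and BCL2L1, CCND1 and CCND2 each belong to more than 1 of the lists.

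Some ribosome biogenesis genes were lower. Of 30 tested, 0 rose and 10 fell (median −0.44), 18 fell without Control replicate 1, and between 2 and 6 fell when an HSP90i library was left out. Over all tested genes, 5.97% were called lower with all libraries and 14.6% without Control replicate 1. With an HSP90i library left out, 2.52% to 3.04% were called in either direction. RRS1, a ribosome assembly factor, stood at 29.6, 27.0 and 20.9 CPM in Control replicates 1, 2 and 3 and 9.95, 8.70 and 9.12 CPM in HSP90i replicates 1, 2 and 3, with a log2 fold change of −1.48 ± 0.17, or −1.38 ± 0.14 without Control replicate 1. PPAN, needed for the large subunit, stood at 11.5, 9.06 and 7.29 CPM in Control replicates 1, 2 and 3 and 2.37, 3.50 and 3.56 CPM in HSP90i replicates 1, 2 and 3 and changed by −1.57 ± 0.25. In both genes Control replicate 1 was the highest library, and all treated values were lower than all controls. NOP2, a ribosomal RNA methyltransferase, changed by −0.98 ± 0.16, and NOP16 by −0.99 ± 0.15, and both calls were lost without HSP90i replicate 1 or 2 (edgeR adjusted p up to 0.0565 and 0.0548).

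Some genes of mitosis rose, and a few DNA replication genes were called lower with all libraries. Of 53 tested mitosis and G2/M genes, 17 rose and 0 fell (median 0.42), against 5.11% of all tested genes called higher. In this list 49 had a positive log2 fold change. KIF20A, a mitotic kinesin, stood at 46.0, 48.3 and 51.6 CPM in Control replicates 1, 2 and 3 and 108, 104 and 120.2 CPM in HSP90i replicates 1, 2 and 3. CCNB1, which encodes cyclin B1, stood at 45.2, 45.3 and 47.6 CPM in Control replicates 1, 2 and 3 and 96.7, 92.7 and 94.4 CPM in HSP90i replicates 1, 2 and 3. In both genes the controls were close together and every treated value was far above them, and the log2 fold changes were 1.19 ± 0.13 and 1.04 ± 0.12. FAM83D rose by 1.25 ± 0.16, CKS2 by 1.15 ± 0.16 and CENPA, the centromeric histone, by 0.91 ± 0.13. These 5 were called in every alternative.

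The count of mitotic genes changed with the library left out, as did the share of all tested genes called. Without Control replicate 1, 42 of 53 rose, at a similar median of 0.40, against 14.2% of all tested genes called higher. There were 7 higher without Control replicate 2 and 5 or 6 without any 1 HSP90i library. Over all tested genes, 4.16% and 2.52% to 3.04% were called in either direction in those fits. The 3 treated values lay above the 3 controls in 41 of the 53, against 17.4% over all tested genes. Of 38 tested DNA replication and G1/S genes, 0 rose and 5 fell (median −0.31). That is 13.2% called, all of them lower, against 5.97% of all tested genes called lower. Only 4 of the 38 had a positive log2 fold change. The 3 treated values lay below the 3 controls in 19 of the 38, against 17.8% over all tested genes. Without Control replicate 1, 23 fell, against 14.6% of all tested genes called lower, and 0 fell when any 1 HSP90i library was left out. MCM6, a subunit of the replicative helicase, stood at 292, 282 and 292 CPM in Control replicates 1, 2 and 3 and 184, 196 and 178 CPM in HSP90i replicates 1, 2 and 3, with no overlap, and changed by −0.64 ± 0.11 (edgeR adjusted p = 0.0104, or 0.0582 to 0.0879 with an HSP90i library left out). E2F1, the factor that activates these genes, stood at 153, 124 and 109 CPM in Control replicates 1, 2 and 3 and 77.4, 77.3 and 67.2 CPM in HSP90i replicates 1, 2 and 3 and changed by −0.80 ± 0.16, or by −0.66 ± 0.10 without Control replicate 1, its highest library. The E2F1 call was lost without Control replicate 2 or any 1 HSP90i library (edgeR adjusted p up to 0.0963).

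Survival and arrest genes changed in mixed directions. In the BCL2 family 3 of 14 fell and 1 rose, or 5 and 2 without Control replicate 1, and 2 fell and 0 rose without any 1 HSP90i library. All tested genes were called at 11.1%, 28.8% and 2.52% to 3.04% in the same fits. Besides BCL2L1, BCL2L11, which encodes the pro-death protein BIM, stood at 33.6, 41.6 and 41.1 CPM in Control replicates 1, 2 and 3 and 13.7, 15.3 and 16.5 CPM in HSP90i replicates 1, 2 and 3 and changed by −1.35 ± 0.15, or by −1.45 ± 0.11 without Control replicate 1. So a survival gene and a death gene of the family were both lower. The 1 member called higher with all libraries was HRK, with a log2 fold change of 0.77. BCL2 changed by −1.20 ± 0.21, a call lost without any 1 HSP90i library (edgeR adjusted p = 0.0501 to 0.0651). Of 17 tested p53 targets outside that family, 4 fell and 0 rose in this line, which lacks working p53. Without Control replicate 1, 6 fell and 2 rose. The shares of all tested genes called lower were 5.97% with all libraries and 14.6% without Control replicate 1. The 4 called lower with all libraries were PLK3 (−1.64 ± 0.18), the nuclease gene AEN (−0.97 ± 0.12), GADD45A (−1.05 ± 0.14) and GDF15, a stress cytokine. GDF15 stood at 1972, 1636 and 1270.0 CPM in Control replicates 1, 2 and 3 and 687, 744 and 559.6 CPM in HSP90i replicates 1, 2 and 3, with its highest value in Control replicate 1, and changed by −1.29 ± 0.19, or by −1.13 ± 0.12 without it.

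Other genes reached large changes outside these groups. P4HA2, a collagen prolyl hydroxylase, stood at 16.4, 14.2 and 15.5 CPM in Control replicates 1, 2 and 3 and 85.3, 80.1 and 79.1 CPM in HSP90i replicates 1, 2 and 3 and rose by 2.40 ± 0.13. DEDD2, a nuclear death-domain protein gene, stood at 41.3, 27.9 and 23.3 CPM in Control replicates 1, 2 and 3 and 164, 172 and 145 CPM in HSP90i replicates 1, 2 and 3 and rose by 2.38 ± 0.22, or by 2.64 ± 0.12 without Control replicate 1. Both were higher in all treated libraries. Of 43 tested proteasome and ubiquitin genes 3 rose and 1 fell, which is near the 11.1% background. Without Control replicate 1, 12 rose and 1 fell, and when any 1 other library was left out 1 rose. Over all tested genes, 28.8% were called without Control replicate 1 and 2.52% to 12.2% without any 1 other library. MRPL18, a mitochondrial ribosomal protein gene, stood at 97.6, 77.3 and 77.7 CPM in Control replicates 1, 2 and 3 and 228, 249 and 208 CPM in HSP90i replicates 1, 2 and 3 and rose by 1.44 ± 0.15, while 1 other of the 74 tested genes of its kind was called, and lower. That is 2.70% of the 74 called, below the 11.1% background. Without Control replicate 1, 8 of the 74 were higher and 4 lower, against 28.8% of all tested genes called in that fit.

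Among genes that fell, CYP1A1, a target of the aryl hydrocarbon receptor, stood at 54.7, 56.5 and 55.2 CPM in Control replicates 1, 2 and 3 and 6.54, 6.30 and 6.34 CPM in HSP90i replicates 1, 2 and 3. APOL4, an apolipoprotein L gene, stood at 21.4, 22.3 and 21.2 CPM in Control replicates 1, 2 and 3 and 1.89, 2.30 and 2.11 CPM in HSP90i replicates 1, 2 and 3. The controls of each lay close together and far above the treated values, and the log2 fold changes were −3.11 ± 0.13 and −3.36 ± 0.17. AHR, the receptor itself and an HSP90 client, stood at 8.56, 21.5 and 21.4 CPM in Control replicates 1, 2 and 3 and 8.43, 7.80 and 10.2 CPM in HSP90i replicates 1, 2 and 3. Control replicate 1 was level with the treated libraries and the other controls were over 2 times as high, so AHR went from −0.96 ± 0.33 (edgeR adjusted p = 0.103) to −1.28 ± 0.14 (edgeR adjusted p = 1.67e-05) without that library. SLC2A3, a glucose transporter gene, stood at 586, 695 and 691 CPM in Control replicates 1, 2 and 3 and 282, 275 and 276 CPM in HSP90i replicates 1, 2 and 3 and changed by −1.24 ± 0.12. IL6 had 1.87, 1.21 and 1.79 CPM in the controls and 0, 0.100 and 0 CPM in the treated libraries, too low for a fold.

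Leaving out Control replicate 1 changed how many genes were called more than it changed the size of the changes. The biological coefficient of variation, the spread between libraries beyond counting error, was 0.172 with all libraries, 0.0772 without Control replicate 1 and 0.156 to 0.197 without any 1 other library. All 688 higher and 800 of the 803 lower calls were made again, and the 3 lost calls were of genes at or under 2.26 CPM in every library. Another 1219 higher and 1168 lower genes of those tested in both fits were called, so that 28.8% of them were called. Their median absolute log2 fold change was 0.43, against 0.87 for the calls made both ways. In 988 of the 2387 gained genes the treated and control values overlapped only because of Control replicate 1. Of the calls made both ways, 8 moved by over 0.5 on the log2 scale.

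**Figure D4:**
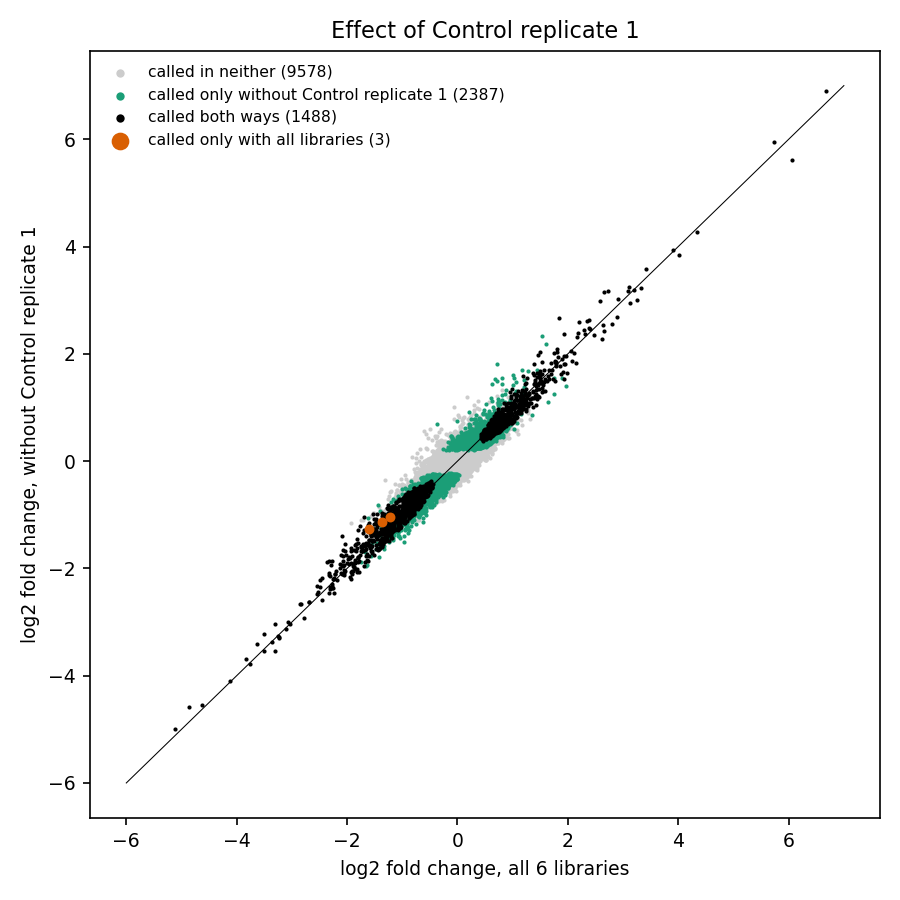
Each point is 1 gene, with its log2 fold change (HSP90i over Control) with all 6 libraries on the x axis and without Control replicate 1 on the y axis. Genes called both ways (black) lie along the diagonal, and the 2387 genes called only without that library (green) have smaller changes, with a median absolute value of 0.43.

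Ribosomal protein and mitochondrially encoded genes were among those gained. Of 78 tested cytosolic ribosomal protein genes, 0 were called with all libraries and 39 were higher without Control replicate 1, and of 13 mitochondrially encoded messenger RNAs the counts were 0 and 9. The median ribosomal protein gene was 0.76 higher on the log2 scale in Control replicate 1 than in the other controls, and the median log2 fold change went from −0.08 to 0.24. RPL4, of the large subunit, stood at 1070.1, 827 and 778 CPM in Control replicates 1, 2 and 3 and 1067, 1109 and 1022 CPM in HSP90i replicates 1, 2 and 3. Control replicate 1 lay inside the range of the treated libraries and the other controls below it, and the log2 fold change went from 0.26 ± 0.14 (edgeR adjusted p = 0.299) to 0.41 ± 0.07 (edgeR adjusted p = 8.40e-04). For the ribosomal protein genes the direction of the median depends on that 1 control. The median of the mitochondrially encoded genes was 0.06 with all libraries, 0.26 without Control replicate 1, −0.03 without Control replicate 2 and −0.09 without Control replicate 3. Whether the separate profile of Control replicate 1 is technical was not tested.

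The remaining lists are given mainly by their counts with all libraries and without Control replicate 1, to be read against backgrounds of 11.1% and 28.8% of genes called. Counts without Control replicate 2 are to be read against 4.16%. Those without HSP90i replicates 1, 2 and 3 are to be read against 2.58%, 2.52% and 3.04%. Of 21 tested targets of the ATF4 stress response, 3 rose and 1 fell, or 11 and 1 without Control replicate 1. Of 27 autophagy and lysosome genes, 2 rose and 0 fell, or 10 and 0. In both of these lists 0 were called without Control replicate 2 or any 1 HSP90i library. Of 19 polymerase pausing factors and of 21 genes for HCFC1 and its chromatin partners, 0 were called, and 5 of the former and 2 of the latter were called without Control replicate 1. Of 28 sterol and fatty acid synthesis genes, 5 rose and 0 fell, or 9 and 4 without Control replicate 1, and 1 rose without Control replicate 2 or any 1 HSP90i library. The 5 included HMGCS1, an early enzyme of cholesterol synthesis, which stood at 45.4, 52.4 and 57.3 CPM in Control replicates 1, 2 and 3 and 103, 119 and 110.4 CPM in HSP90i replicates 1, 2 and 3 and rose by 1.10 ± 0.14. Of 16 iron handling genes 0 were called, or 4 higher and 3 lower without Control replicate 1. Of 31 tested replication-dependent histone genes 1 was lower, or 4 without that library.

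Interferon response genes went both ways. Of 19 tested, 4 rose and 2 fell, or 7 and 3 without Control replicate 1. Leaving out Control replicate 2 or HSP90i replicate 1 gave 2 and 1, and leaving out HSP90i replicate 2 or 3 gave 1 and 1. BST2, which tethers budding viruses, stood at 41.7, 21.9 and 18.3 CPM in Control replicates 1, 2 and 3 and 101, 115 and 97.5 CPM in HSP90i replicates 1, 2 and 3. All treated values were above all controls, and the log2 fold change was 1.94 ± 0.28, or 2.37 ± 0.12 without Control replicate 1, its highest control. RSAD2, another antiviral gene, stood at 19.7, 21.1 and 22.0 CPM in Control replicates 1, 2 and 3 and 8.81, 8.90 and 9.90 CPM in HSP90i replicates 1, 2 and 3 and changed by −1.19 ± 0.15. Of 13 tested genes of the NF-kB pathway, 0 rose and 4 fell, with the same counts without Control replicate 1 but 1 lower without any 1 HSP90i library. Of 18 targets of NRF2, the antioxidant regulator, 4 rose and 0 fell, or 5 and 1, and only OSGIN1, a growth inhibitor (1.70 ± 0.20), was called higher under every alternative. Of 20 growth arrest genes linked to FOXO factors 4 rose and 2 fell, or 8 and 4. In the list of D and E cyclins and CDK inhibitors, 4 of 15 rose and 5 fell, or 4 and 8. Of 28 glycolysis and hypoxia genes 4 rose and 1 fell, or 6 and 4. When any 1 HSP90i library was left out, 1 NRF2 target rose, and 1 or 2 FOXO-linked genes rose and 2 fell. In the same fits 1 to 3 genes of the cyclin list rose and 2 fell, and 2 or 3 glycolysis and hypoxia genes rose and 1 fell. Those fits called 2.52% to 3.04% of all tested genes in either direction.

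Blood cytokine receptor genes had 0 of 17 higher and 1 lower, or 3 and 6 without Control replicate 1. In 18 SRF and YAP cytoskeletal targets 0 rose and 1 fell, or 5 and 1, the lower gene being TAGLN (transgelin), which stood at 26.3, 19.4 and 21.6 CPM in Control replicates 1, 2 and 3 and 7.86, 6.20 and 6.34 CPM in HSP90i replicates 1, 2 and 3. Its treated values were all lower than its controls, and its log2 fold change was −1.72 ± 0.18. Among 21 tested long noncoding and small nucleolar RNA host transcripts, 1 rose and 2 fell, or 2 and 3. SNHG15, a host transcript of a small nucleolar RNA, stood at 179, 128 and 119.8 CPM in Control replicates 1, 2 and 3 and 51.7, 52.3 and 44.9 CPM in HSP90i replicates 1, 2 and 3 and changed by −1.52 ± 0.18, or by −1.31 ± 0.09 without Control replicate 1, its highest library. For 22 purine and pyrimidine synthesis enzymes the counts were 0 and 2, or 1 and 6. Without Control replicate 2 or any 1 HSP90i library, 0 cytokine receptor genes and 0 of these enzymes were called, and 1 noncoding transcript was called, which was lower.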

How the data were processed

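RNA-seq of 3 Control and 3 HSP90i K562 libraries was analysed from the deposited table of raw gene counts, in which values were whole and totals differed between libraries. The submitters' processing notes name MACS2, Bowtie2, DESeq2, featureCounts, Picard, TopHat2 2.0.13 and Trim Galore, and the builds hg38, GRCh37, mm10 and GRCm38, without roles. For the K562 counts, neither build nor strand setting is given in the sources used here. No positions are therefore reported, and antisense or overlapping genes may share reads. Samples were grouped by title, and columns named for DMSO were taken as the Control samples with the same replicate number.

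Genes were filtered with edgeR's filterByExpr, which left 13456 of 63568. Counts were scaled by TMM and compared by the quasi-likelihood test of edgeR 4.0.16 in R 4.3.3 over these 6 libraries, with Benjamini-Hochberg adjustment over all tested genes and a threshold of 0.05. The SE of a log2 fold change was its size divided by the square root of the test's F. Levels are TMM-scaled CPM. Depth limits low genes, and CPM values rest on 7936066 to 10950573 counts per library. The procedure was tested on simulated data in which no library stood apart, so that test does not cover the effect of Control replicate 1. The alternatives changed the scaling (RLE, upper quartile, or library size alone), the filter (none, or 1 CPM in at least 3 libraries) or the test (DESeq2 1.42.0, or limma-voom with sample weights in limma 3.58.1), added the replicate number as a block, or left out 1 library. A symbol carried by several identifiers was taken as the one with the most counts, and 14 tested identifiers shared their symbol with another tested identifier.

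The members, the 51 gene lists and the rules for naming genes were chosen with earlier results of these data known, so no list is independent evidence. Some genes that met the rule for naming are not reported here. Genes were named if among the 15 most changed in either direction (average log2 CPM of at least 3, no overlap between groups), among up to 6 members of each list with the smallest p, among the members of 4 lists, or gained, lost or most displaced through Control replicate 1. Only some of these are printed. A part of the rule on noncoding genes needed a human annotation and was not run. The list of HSP90 chromatin peaks was not analysed here. Plots were made in Python 3.11.15 using matplotlib 3.10.9.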

Additional observations from a re-analysis of the deposited data

How the results depend on the processing

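Of the 1491 called genes, 0 changed sign under any of the 14 alternatives, and 90 of the 107 called genes named above were called under each of them. The counts depended on the libraries: leaving out each library in turn gave 173 to 1922 higher and 171 to 1995 lower genes, the lowest without HSP90i replicate 1 (higher) and HSP90i replicate 2 (lower) and the highest without Control replicate 1. Limma-voom with sample weights, which gave Control replicate 1 a weight of 0.0966, called 2742 higher and 2849 lower. With library size as the only scaling, 435 genes were higher and 1195 lower, and 26.7% of its calls were higher against 46.1% in the main analysis. The median log2 fold change of all genes was then −0.13 in place of −0.02, so small changes are relative to the scaling. Upper quartile factors gave 535 and 981 (35.3% higher). RLE factors, either filter and DESeq2 (943 and 968) kept both counts within 1.5 times.

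The replicate numbers were shared by the groups, but the labels do not say that a number marks a shared batch. The main fit therefore did not take the numbers as pairs. Same-numbered libraries correlated at 0.28, 0.04 and 0.45 in their deviations, and libraries with different numbers at −0.39 to 0.17. Control replicate 2 correlated more with HSP90i replicate 3 (0.10) than with its own number. Whether the numbers mark pairs was not tested. With the replicate block 872 genes were higher and 938 lower.

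Signs turned only in named genes that were not called. HSF1 was 0.088 by limma-voom and between −0.26 and 0.11 when 1 library was left out. HSPA14 was 0.0038 with the replicate block, and between −0.23 and 0.11 when 1 library was left out (0.05 without Control replicate 2). MAX was −0.034 by library size alone and −0.0076 by upper quartile factors. By library size alone, by upper quartile factors and over the libraries left out in turn, LYZ was −0.090, −0.056 and between −0.049 and 0.085 (−0.024 by limma-voom), and ITGAM was −0.084, −0.045 and between −0.066 and 0.16. KRT19 was between −0.047 and 0.50 when 1 library was left out. The cause of these shifts was not tested. No value here separates culture from library preparation.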
